A study of Mus musculus with 1 sample.

Results

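The 8 genes described here encode transcription factors of red cell and platelet development: Gata1, Gata2, Klf1, Tal1, Lmo2, Zfpm1, Gfi1b and Nfe2. They were chosen by name, as 8 of the 25661 genes of a single-cell count table from mouse bone marrow, and all 8 were found in it. Their levels were read in cells sorted by lineage marker genes (gates) and in the 5 hashtags, A961 to A965, that had been used to label the cells before pooling. The study sorted cKit+Lin- progenitors and GMP-MoPs from 1 naive mouse and 1 mouse injected with LPS (lipopolysaccharide, a bacterial cell wall component), and cMoPs from 1 naive mouse. The sorted cells were pooled into 1 library, made with BD Rhapsody capture and the TAS-Seq protocol. No strain, age or genotype was given, and the labels do not say which hashtag marked which population or mouse, so hashtags are compared as hashtags and carry no treatment here. Since there was a single library and each hashtag occurs once, nothing could be tested. Ranges in brackets are exact 95% intervals. They cover counting error only, not the spread between cells or animals.

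GATA factors are zinc finger proteins that bind the core letters GATA in DNA; Gata2 acts in stem and progenitor cells, mast cells and early megakaryocytes, and Gata1 in erythroid cells, megakaryocytes, eosinophils and mast cells. On many erythroid genes Gata1 sits in a complex with the basic helix-loop-helix factor Tal1, the bridging protein Lmo2 and its partner Ldb1. Zfpm1 (FOG1) is a cofactor that binds GATA proteins, Gfi1b is a zinc finger repressor of the erythroid and megakaryocyte lineages, Klf1 binds CACCC elements of globin and other erythroid genes, and Nfe2 is the larger subunit of a dimer with small Maf proteins that acts on globin and platelet genes.

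The 8 genes lie on 6 chromosomes of GRCm38: Gata1 on X at 7959260 to 7978071, Gata2 on 6 at 88193891 to 88207032, Klf1 on 8 at 84901928 to 84905291, Tal1 on 4 at 115056426 to 115071755, Lmo2 on 2 at 103957986 to 103981878, Zfpm1 on 8 at 122282141 to 122337251, Gfi1b on 2 at 28609450 to 28621982 and Nfe2 on 15 at 103248212 to 103258403. In GENCODE M21, Lmo2 overlaps 4931422A03Rik on the opposite strand, and Zfpm1 overlaps Gm20388 on its own strand. Whether the counting used strand is not given in the sources used here, so reads of Lmo2 and its antisense neighbour cannot be told apart. Where Zfpm1 and Gm20388 overlap, strand could not tell their reads apart in either case.

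Promoter sequences are shown for the 6 factors with a RefSeq entry (GRCm38.p6), all but Lmo2 and Nfe2. Over 22 groups of cells (11 gates, each split by hashtag A963 and A965), log2(CPM + 10) levels of Gata1, Klf1, Gfi1b, Zfpm1 and Tal1 had pairwise r of 0.81 to 0.98, and Gata2 had 0.15 to 0.66 with them. The 11 include cells that passed no gate and leave out the megakaryocyte and basophil gates, which were too small. Outside the erythroid gate, Gata1 and Klf1 reached at most 9.16 and 7.06 CPM in these groups. Their r thus largely sets the erythroid gate against the rest. RefSeq gave 8 windows for the 6, since Tal1 and Gata2 have 2 starts each. The window of the first start is printed for these. Each sequence is the 190 bases from 250 to 61 bases before a RefSeq start, written 5′ to 3′ along the gene. Capitals mark GATA hexamers (GATA with an A or T before it and an A or G after it) and CACCC, on either strand.
Gata1, chrX:7967971-7968160 (minus strand): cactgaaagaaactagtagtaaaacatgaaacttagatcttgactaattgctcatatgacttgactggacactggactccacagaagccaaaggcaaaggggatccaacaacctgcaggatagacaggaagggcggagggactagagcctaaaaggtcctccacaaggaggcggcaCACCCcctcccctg
Klf1, chr8:84901732-84901921 (plus strand): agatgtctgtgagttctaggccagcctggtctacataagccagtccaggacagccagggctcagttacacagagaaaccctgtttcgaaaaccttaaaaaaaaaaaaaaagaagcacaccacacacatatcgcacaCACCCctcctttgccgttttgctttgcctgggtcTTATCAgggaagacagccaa
Gfi1b, chr2:28622043-28622232 (minus strand): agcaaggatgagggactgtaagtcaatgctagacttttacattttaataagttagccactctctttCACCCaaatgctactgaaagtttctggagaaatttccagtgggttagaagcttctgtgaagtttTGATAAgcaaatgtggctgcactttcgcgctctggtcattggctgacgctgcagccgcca
Tal1, chr4:115056176-115056365 (plus strand): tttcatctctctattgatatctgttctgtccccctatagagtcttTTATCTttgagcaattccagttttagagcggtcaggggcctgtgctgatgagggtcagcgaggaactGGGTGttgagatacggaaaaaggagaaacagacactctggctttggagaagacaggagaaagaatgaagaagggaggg
Zfpm1, chr8:122281891-122282080 (plus strand): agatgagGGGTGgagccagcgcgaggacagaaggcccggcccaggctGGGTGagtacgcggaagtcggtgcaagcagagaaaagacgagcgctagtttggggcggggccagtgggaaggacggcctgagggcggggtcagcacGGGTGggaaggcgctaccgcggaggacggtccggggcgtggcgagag
Gata2, chr6:88193641-88193830 (plus strand): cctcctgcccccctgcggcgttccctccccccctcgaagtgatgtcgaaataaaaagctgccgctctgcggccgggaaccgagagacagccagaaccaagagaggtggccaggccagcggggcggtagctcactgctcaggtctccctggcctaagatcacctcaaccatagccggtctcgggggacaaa
None of the 6 printed windows overlapped a GENCODE exon; that of Gata1 lies inside the annotated span of the gene, before an internal start. A GATA hexamer and a CACCC were both present in the windows of Klf1, Gfi1b and Tal1, those of Gata1 and Zfpm1 held CACCC (1 and 3 matches) and no hexamer, and that of Gata2 held neither. The windows not printed differed from these: that of the second Tal1 start held neither, and that of the second Gata2 start, which overlaps an exon, held a CACCC. Of the 8 windows, 3 held a hexamer and 6 a CACCC. In Klf1 the hexamer was 80 to 75 bases before the start and the CACCC 114 to 110. In Gfi1b they were 120 to 115 and 184 to 180 bases before it. Over 32851 RefSeq windows of the same length, 22.4% held such a hexamer, 42.6% a CACCC and 7.77% both. A match is a run of letters and not a measured binding site.

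The pool held 10731 cells. Of these, 10535 carried a single hashtag and 10528 passed the filters on genes detected and mitochondrial counts. Hashtags A963 and A965, for which 15000 cells each had been loaded, gave 4716 and 5567 cells at medians of 20430.5 and 27205 counts, and A961, A962 and A964, loaded with 100 cells each, gave 68, 104 and 73 cells at medians of 25826.5 to 27801. No cell barcode number occurred under more than 1 hashtag. Scrublet called 223 of the kept cells (2.12%) doublets, which stayed in. The hashtags differed in sex-linked transcripts. The X-inactivation transcript Xist was at 409 to 611 CPM (a gene's summed counts scaled to a fixed total) in A961, A962 and A963. In A964 and A965 it was at 59.7 and 11.8 CPM. The sum of 4 Y-linked genes was 6.46 CPM for A963 but 79.5 CPM for A965. For A961, A962 and A964 that sum was 39.2, 21 and 86 CPM. A961 and A962 thus had high Xist together with Y-linked levels above that of A963. Whether some cells of the small hashtags carry a wrong hashtag was not tested. Sex-linked differences between these hashtags and any difference of population or treatment cannot be told apart. Kit, which encodes the receptor of the cKit+ sort, had a count in 23.3% of A963 cells and 16.3% of A965 cells.

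Gates were set on marker genes that exclude the 8 factors and the globins. A cell entered the erythroid gate when at least 5 of 10 markers (among them Car1, Car2, Epor and Rhag) had a count after every cell had been thinned to 8800 counts. This left 728 cells in the erythroid gate alone, of which 578 were from A963, 141 from A965, 7 from A962 and 1 each from A961 and A964. The gate is a range on a score: 37 of the 782 cells that passed it sat at exactly 5 markers, and 48 cells were 1 marker short. Gates for megakaryocyte markers (38 cells), basophil and mast cell markers (45), and stem and multipotent markers (200) were small and held cells of A963 and A965 only. The megakaryocyte and stem gates were less sharp, with 28 of 78 and 174 of 268 passing cells at the cut and 218 and 399 cells 1 marker short. For the basophil and mast gate these numbers were 18 of 113 and 33. Cells passing 2 gates kept both names, among them 32 in the megakaryocyte and stem gates, 47 in the basophil and granule progenitor gates and 21 in the erythroid and neutrophil gates. The neutrophil gate, with 2861 cells, was the largest and serves as the background for genes it should lack.

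**Figure D1:**
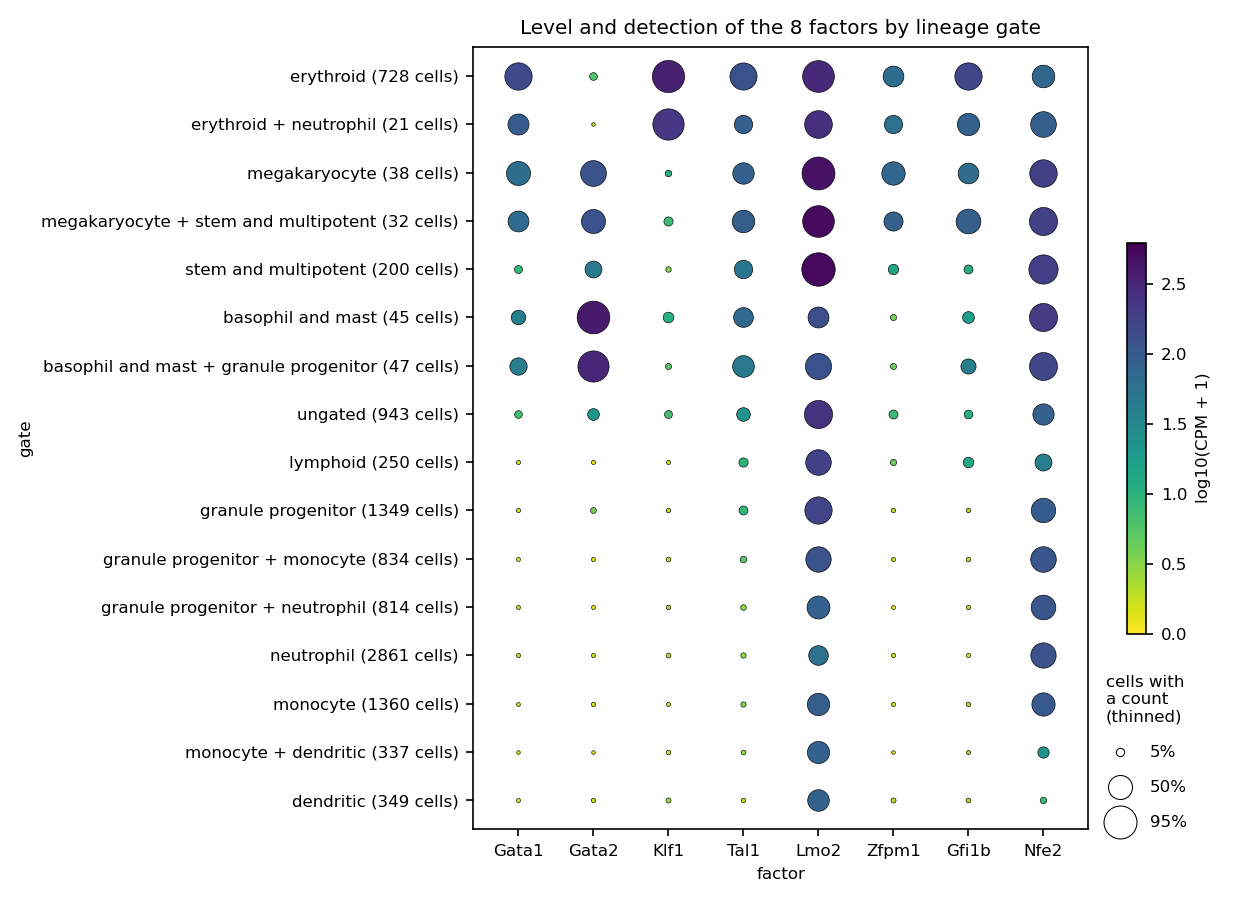
Summed level (colour, log10 of CPM + 1) and share of thinned cells with at least 1 count (dot area) for the 8 factors (columns) in 16 gates (rows, with cell numbers). Gata1, Klf1 and Gfi1b are darkest in the erythroid gate, Gata2 in the basophil and mast gates, and Lmo2 and Nfe2 have large dots across most gates.

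In the erythroid gate, Klf1, Gata1, Gfi1b, Zfpm1 and Tal1 stood 16.5 to 102 times above their level in all other cells, Lmo2 2.36 times, and Gata2 (0.72) and Nfe2 (0.70) were below it. All other cells include those that passed the erythroid gate together with another gate, here and in the ratios below. At 2-fold, 6 of the 8 were higher (against 14.3% of 9605 genes tested) and 0 were lower (against 20.8%). The median log2 ratio of the 8 was 4.41, and that of all genes tested was 0.16. The 8 were chosen as known regulators of these lineages, so this count is a description.

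Klf1, the erythroid Krüppel-like factor, had 355 CPM (348 to 362) in the erythroid gate and 3.48 CPM in all other cells, a ratio of 102 (95.5 to 109). Its level in cells that did not pass the erythroid gate at all was lower, 1.53 CPM (1.38 to 1.68). It was detected in 91.1% of thinned erythroid-gate cells (98.9% before thinning) and in 0.94% of thinned neutrophil-gate cells (1.85% before), at median depths of 41632 and 20811 counts. Of all its counts in the library, 96.7% lay in the 7.43% of cells that passed the erythroid gate, which held 11.4% of all counts. Below the erythroid gates its level was 10.3 CPM in the basophil gate, 10.2 in the megakaryocyte gate, 6.43 in the megakaryocyte and stem gates and 6.09 in cells that passed no gate, and the intervals of these neighbours overlap. No other factor of the 8 had a larger share of its counts in the erythroid gate.

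Gata1 was at 146 CPM (142 to 150) in the erythroid gate and at 2.74 CPM in all other cells, a ratio of 53.2 (49.2 to 57.5). Its level in cells that did not pass the erythroid gate at all was 2.03 CPM (1.86 to 2.20). Detection was 65.1% of thinned cells in the erythroid gate (94.0% unthinned) and 0.35% in the neutrophil gate. The 21 cells in the erythroid and neutrophil gates had 96.9 CPM. The 2 megakaryocyte groups followed at 64.4 and 66.9 CPM, then the 2 basophil groups at 39.9 and 41.3 CPM, and the stem gate at 8.03 CPM (5.42 to 11.5). The intervals overlap within each of these pairs. The step down from the erythroid gate and that from the basophil groups to the stem gate exceed counting error.

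Gfi1b, a repressor with a SNAG domain, was at 161 CPM (157 to 166) in the erythroid gate, 65.4 CPM (50.4 to 83.5) in the megakaryocyte gate, 16.3 CPM (8.11 to 29.1) in the basophil gate and 0.34 CPM in the neutrophil gate. The erythroid ratio was 47.5 (44.3 to 51.0), with 88.4% of its counts in cells passing that gate. Zfpm1, the GATA cofactor, gave 63.4 CPM (60.7 to 66.2) in the erythroid gate and 73.6 CPM (57.6 to 92.7) in the megakaryocyte gate, and these intervals overlap. In the basophil and mast gate Zfpm1 had 2 counts in 45 cells (2.95 CPM, 0.36 to 10.7), while it had 72 counts in 38 megakaryocyte-gate cells. Its level was thus alike in the erythroid and megakaryocyte gates within counting error and lower in the basophil gate.

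Tal1 was at 127 CPM in the erythroid gate (123 to 131), 88.9 CPM in the megakaryocyte gate (71.2 to 110), 70.9 CPM in the basophil gate (52.3 to 94.0) and 49.3 CPM in the stem gate (42.4 to 56.9). In the neutrophil gate it was at 1.76 CPM. The erythroid gate was above the rest, and each of the next 3 gates overlapped its neighbour. Lmo2, the bridging protein that Tal1 and Ldb1 bind, was broader: 545 CPM (521 to 569) in the stem gate, 466 CPM (424 to 511) in the megakaryocyte gate, 306 CPM (300 to 312) in the erythroid gate, 186 CPM in the lymphoid gate and 57.3 CPM (55.5 to 59.2) in the neutrophil gate, where 32.9% of thinned cells still held a count. Only 23.2% of Lmo2 counts lay in cells passing the erythroid gate, against 69.4% of Tal1 counts. Tal1 had a count in 1.33% of the same thinned neutrophil-gate cells.

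Gata2 ran the other way. It was highest in the basophil and mast gate at 405 CPM (358 to 456), where 93.3% of thinned cells held a count, and in the basophil and granule progenitor group at 312 CPM (280 to 345). The megakaryocyte gate had 121 CPM (99.8 to 144), the megakaryocyte and stem group 127 CPM and the stem gate 43.9 CPM (37.4 to 51.2). In the erythroid gate it was at 4.91 CPM (4.17 to 5.74), with a count in 4.12% of thinned cells, above the 0.31% of the neutrophil gate. Each of these steps exceeds counting error except that between the 2 megakaryocyte groups.

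Nfe2 was counted in erythroid, stem and granulocytic gates alike. Its levels were 204 CPM (171 to 241) in the basophil and mast gate, 195 CPM (181 to 210) in the stem gate, 191 CPM (165 to 221) in the megakaryocyte gate, 124 CPM (122 to 127) in the neutrophil gate, 97.2 CPM in the granule progenitor gate and 74.1 CPM (71.2 to 77.2) in the erythroid gate. The first 3 do not differ beyond counting error. Its low point was the dendritic gate, with 38 counts in 349 cells (6.89 CPM, 4.87 to 9.45) and 2.58% of thinned cells. Only 8.36% of its counts lay in cells passing the erythroid gate.

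In the megakaryocyte gate, 6 of the 8 factors were at least 2-fold above all other cells (against 16.6% of 9985 genes) and 1 was at least 2-fold below (against 12.7%). Gata2 led at 19.3-fold (15.9 to 23.2), followed by Zfpm1 at 8.58-fold (6.69 to 10.8) and Tal1 at 4.41-fold (3.53 to 5.45). Klf1 was the factor below, at a ratio of 0.25 (0.12 to 0.46), but the other cells include the erythroid gate, and with erythroid-gate cells left out of them its ratio was 6.83. In the 32 cells of the megakaryocyte and stem gates 6 factors were higher and 1, again Klf1, was lower (against 21% and 11.9%), and its ratio there was 4.25 with erythroid-gate cells left out.

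The basophil and mast gate had 3 of 8 factors at least 2-fold higher (against 22.1%) and 2, Klf1 and Zfpm1, lower (against 10.8%). The higher ones were led by Gata2 at 70.7-fold (62.0 to 80.3). In the basophil and granule progenitor group 3 were higher and 2 lower (against 14.3% and 9.43%), a count of higher factors that fell to 1 when 1 more marker was needed. With erythroid-gate cells left out of the other cells, Klf1 was at 6.87-fold (7 counts) and 2.84-fold (5 counts) in the 2 basophil groups. Zfpm1 was then at 1.53-fold (2 counts) and 1.79-fold (4 counts). The counting intervals of both Zfpm1 levels and of the second Klf1 level hold their levels outside the erythroid gate (1.93 and 1.53 CPM). Gfi1b, at 0.81 and 1.93 against all other cells, was then at 6.25-fold and 15.6-fold. Against all other cells, Tal1, at 3.5-fold (2.57 to 4.64), and Gata1, at 2.23-fold (1.47 to 3.25), were the other 2 higher factors in the basophil gate. For Gata1 the counting interval reaches below 2-fold, and its ratio was 1.80 with 1 more marker. The stem gate had 3 higher (against 15.2%) and 2 lower (against 8.09%): Gata2 at 7.13-fold (6.04 to 8.37), Lmo2 at 3.8-fold (3.63 to 3.97) and Tal1 at 2.46-fold (2.11 to 2.85), with Gata1 and Klf1 lower. With the erythroid gate left out of the other cells, Gata1 in the stem gate was 4.14-fold higher instead. Gfi1b there went from 0.53 to 4.25 and Zfpm1 from 1.56 to 7.75. Klf1 was then at 1.59 from 9 counts, and its interval (1.10 to 4.57 CPM) holds the 1.53 CPM of cells outside the erythroid gate.

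Taking cells that passed no gate other than the erythroid one, the number of erythroid markers in a cell ordered the factors. The cells with 3 or 4 markers, just under the gate (53 cells, median 15315 counts), had Gata2 at 124 CPM (103 to 149), Gata1 at 76.7 CPM (59.9 to 96.7) and Klf1 at 99.4 CPM (80.1 to 122). In the 56 cells with 5 or 6 markers Gata2 was at 40.4 CPM (32.3 to 49.8), Gata1 at 131 CPM and Klf1 at 253 CPM, and in the 460 cells with 9 or 10 markers Gata2 was at 1.3 CPM (0.85 to 1.9), Gata1 at 153 CPM (147 to 158) and Klf1 at 381 CPM (373 to 390). With 0 markers Gata2 was at 4.78 CPM (3.54 to 6.32), so its level was highest in the middle of this order. Nfe2 followed a similar course, from 68.2 CPM at 0 markers to 180 CPM (154 to 210) at 3 or 4 markers and 77.1 CPM at 9 or 10.

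**Figure D2:**
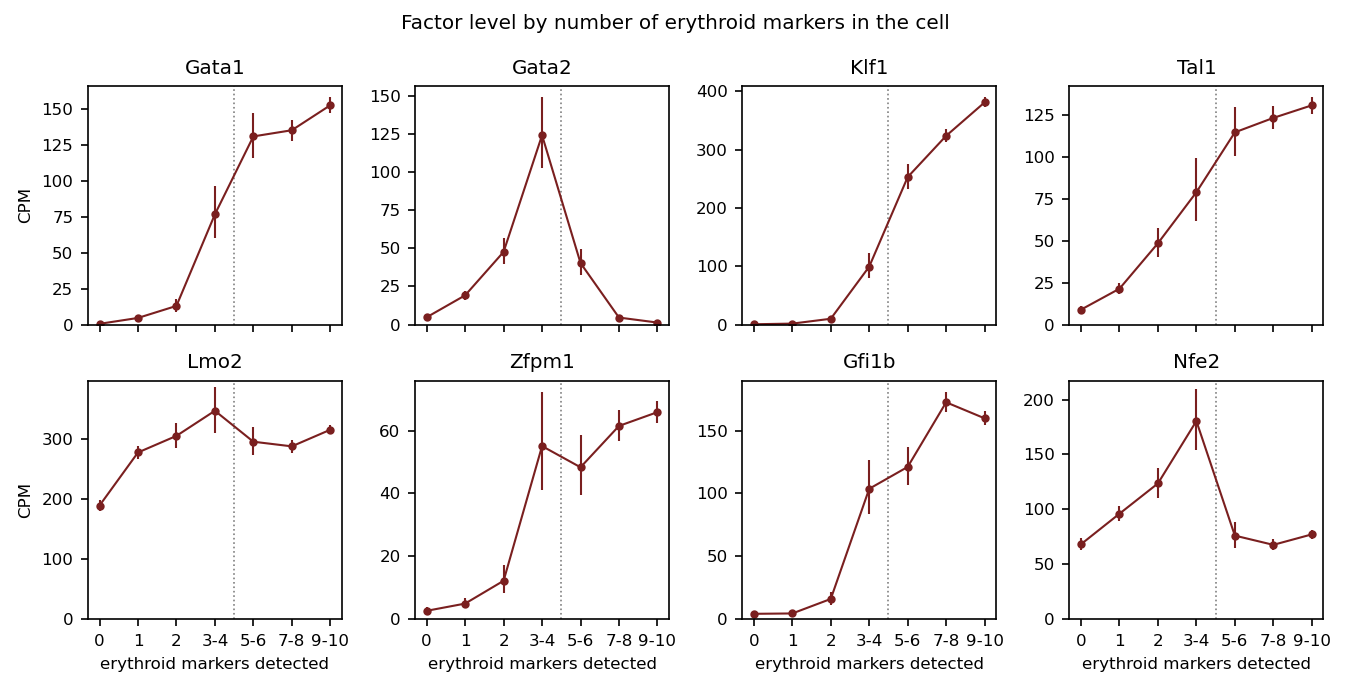
CPM of each factor against the number of the 10 erythroid gate markers detected per thinned cell, in cells that passed no other gate, with exact 95% counting intervals; the dotted line marks the gate. Gata2 peaks at 3 or 4 markers and is near 0 at 9 or 10, while Klf1 climbs to 381 CPM.

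Both large hashtags gave this order. In A963, Gata2 went from 9.9 CPM at 0 markers to 98.7 at 3 or 4 and 1.54 at 9 or 10, and in A965 it went from 1.62 to 142 to 0.28 CPM. The A963 and A965 groups at 3 or 4 markers held 26 and 27 cells. Klf1 went from 0.51 to 114 to 387 CPM in A963 and from 0.48 to 88.8 to 351 CPM in A965.

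Few single cells of the erythroid gate had a Gata2 count. Before thinning 49 cells (6.73%) had both Gata1 and Gata2, 9 Gata2 alone and 635 Gata1 alone. Gata1 had a count in 94.0% of all cells of this gate before thinning and in 65.1% after. After thinning, 13 cells (1.79%) had both, 461 (63.3%) Gata1 alone and 17 (2.34%) Gata2 alone, so the order of both and Gata2 alone turns with depth. In thinned cells of the megakaryocyte gate 31.6% had both (55.3% before thinning), 18.4% Gata1 alone and 26.3% Gata2 alone, and in the basophil and mast gate 13.3% had both (24.4% before) and 80.0% Gata2 alone. Gata1 and Klf1 were together in 59.8% of erythroid-gate cells (93.3% before thinning) and in 0 of 38 megakaryocyte-gate cells (13.2% before thinning). All of Gata1, Klf1, Tal1, Lmo2 and Gfi1b were counted in 22.9% of thinned erythroid-gate cells (167), and in 0 thinned cells of the megakaryocyte, basophil, stem, lymphoid, granule progenitor, neutrophil, monocyte and dendritic gates. Before thinning they were counted in 78.2% of erythroid-gate cells, in 2 of 38 megakaryocyte-gate cells, in 1 of 1349 granule progenitor cells and in 0 cells of the other 6 gates. Thinned cells miss low transcripts, so these are shares of cells with a count and not of cells that express a gene.

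**Figure D3:**
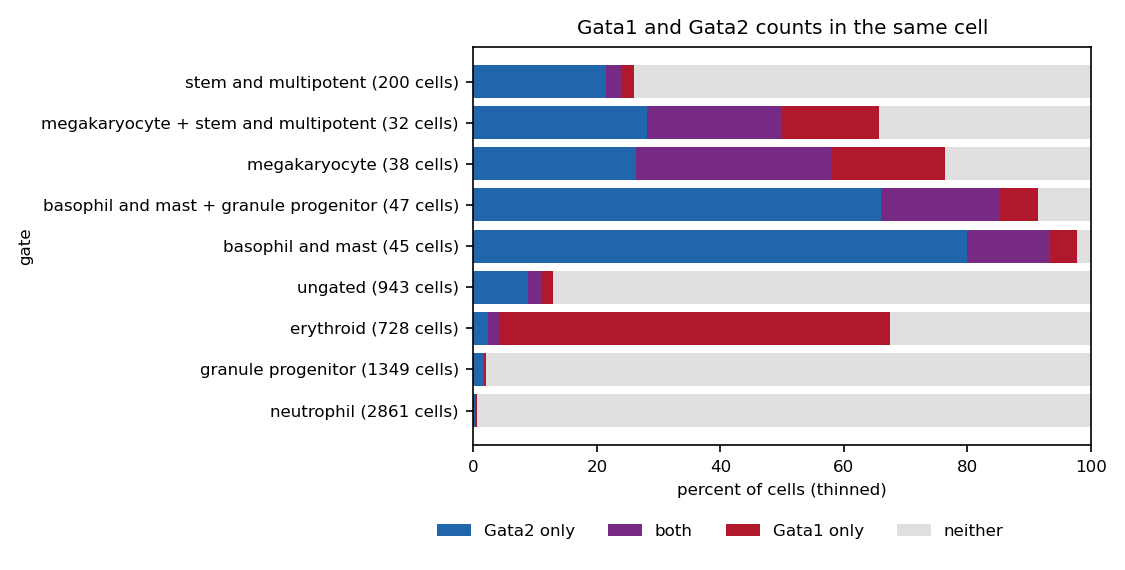
Share of thinned cells (percent) with a count of Gata2 only, both, Gata1 only or neither, by gate with cell numbers. The erythroid gate is mostly Gata1 only (63.3%), the basophil and mast gate mostly Gata2 only (80.0%), and the megakaryocyte gate has the largest share with both (31.6%).

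Globin genes were not in the gate, so the summed share of Hba-a1, Hba-a2, Hbb-bs and Hbb-bt could order the erythroid-gate cells. In 4 bins of 182 cells the median globin share was 0.037%, 0.99%, 4.16% and 11.3% of counts, and median totals were 47137, 49752, 42029.5 and 30567.5. Gata2 was at 16 CPM (13.4 to 18.9) in the lowest bin and at 1.3, 0.63 and 0.16 CPM in the next 3. Gata2 was the 1 factor at least 2-fold lower in the highest than in the lowest bin (against 25.1% of 8677 genes). The count of factors 2-fold higher was 0 (against 6.56%). With so few factors, neither count can be told apart from the share of all genes. Between the lowest and the highest bin, and within 2-fold, Klf1 was higher by 1.68-fold (1.59 to 1.78), from 266 to 366, 368 and 447 CPM, Nfe2 1.88-fold (1.67 to 2.11), from 59.8 to 60.5, 76.1 and 112 CPM, Tal1 1.35-fold, Zfpm1 1.33-fold, Gata1 1.28-fold and Lmo2 1.22-fold. Gfi1b peaked in the second bin, at 158, 185, 165 and 124 CPM. The median log2 ratio of the highest over the lowest bin was 0.38 for the 8 factors and -0.39 for all genes tested.

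In A963, Gata2 counts in the lowest bin were 88 in 137 cells (13.4 CPM, 10.8 to 16.5) and 18 in the 441 cells of the other bins (0.96 CPM). In A965 they were 51 in 44 cells (24.4 CPM, 18.2 to 32.1) and 0 in the other 97 cells, which allows up to 0.69 CPM (3 counts over those cells). Klf1 was highest in the last bin for both hashtags, at 448 CPM (A963) and 417 CPM (A965), with a dip to 327 CPM in the third bin of A965. The globin share also moves every total, since globin counts enter the CPM. With globin counts left out of the totals Nfe2 passed 2-fold, at 2.16.

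**Figure D4:**
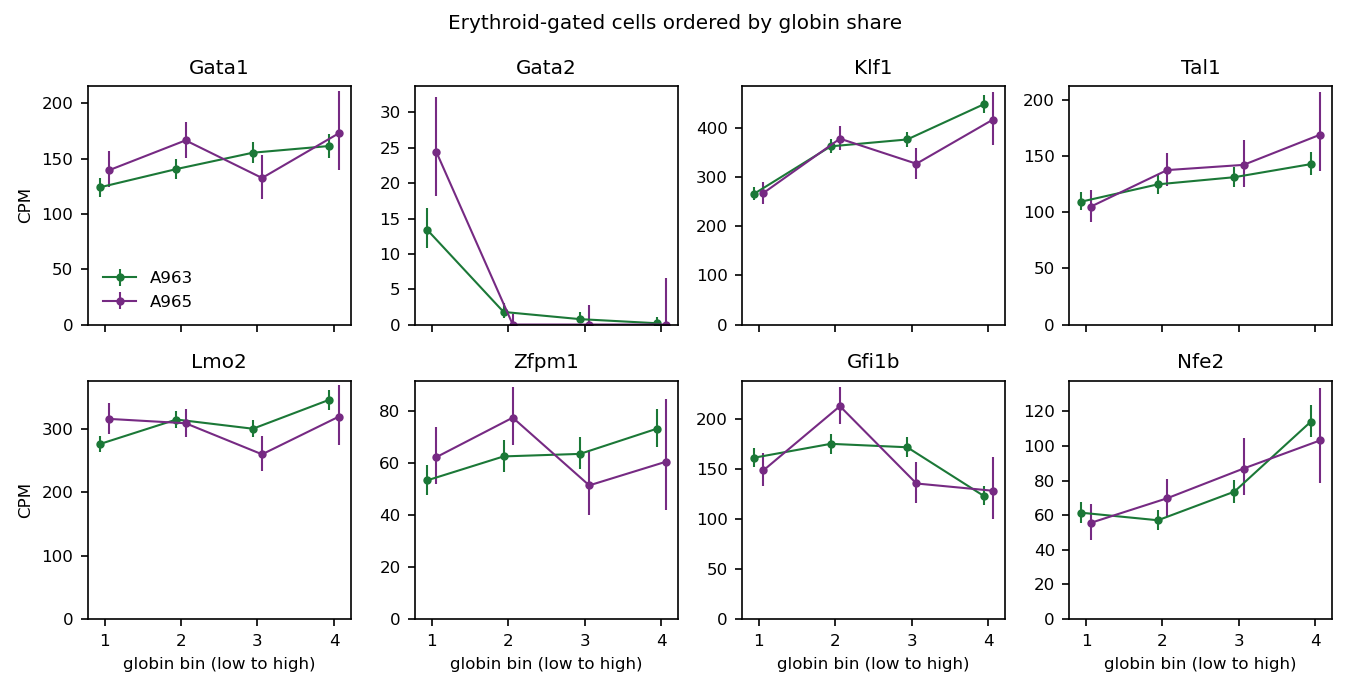
CPM of each factor (vertical axis) in the 4 bins of erythroid-gate cells by globin share (horizontal axis), for A963 and A965, with exact 95% counting intervals. Gata2 falls after the lowest bin, and Klf1 and Nfe2 are higher in the highest bin than in the lowest.

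Across hashtags, the erythroid gate held 12.3% of A963 cells (11.3 to 13.2%), 2.53% of A965 cells (2.14 to 2.98%), 6.73% of A962 (2.75 to 13.4%), 1.47% of A961 (0.037 to 7.92%) and 1.37% of A964 (0.035 to 7.40%). The share in A963 was 4.84 times that in A965 (4.02 to 5.86). A fold of 1.5 was used for hashtags. Over all cells 5 of 8 factors were lower in A965 than in A963 (against 5.43% of 9724 genes) and 0 were higher (against 3.86%). Klf1 was at 14.3 CPM in A965 against 81.2 CPM for A963, a ratio of 0.18, Gata1 at 7.56 and 34.0 CPM (0.22), Gfi1b at 8.54 and 38.1 CPM (0.22), Zfpm1 at 4.2 and 15.8 CPM (0.27) and Tal1 at 11.0 and 35.0 CPM (0.32). Gata2 (0.78), Lmo2 (0.81) and Nfe2 (1.04) were within 1.5-fold. The 3 small hashtags had from 0 (A962) to 5 (A961) Gata2 counts, and their Klf1 was at 13.2, 36.4 and 14.0 CPM in A961, A962 and A964. Levels and shares of the small hashtags are those of cells as labelled, and the labels were not tested.

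Within the erythroid gate 7 of the 8 were within 1.5-fold between A965 and A963. Their ratios of A965 to A963 ran from 0.93 for Klf1 (0.89 to 0.98) to 1.06 for Gfi1b (0.99 to 1.13), with Gata1 at 1.05 (0.97 to 1.12), Tal1 at 1.03, Zfpm1 at 1.05, Lmo2 at 0.98 and Nfe2 at 0.96. Gata2 was the exception, at 7.93 CPM in A965 against 4.2 in A963, a ratio of 1.89 (1.32 to 2.66), from 51 and 106 counts. So 1 of 8 was higher (against 3.99% of 8776 genes) and 0 lower (against 2.02%). The lowest globin bin held 31.2% of the erythroid-gate cells of A965 (44 of 141) and 23.7% of those of A963 (137 of 578). Inside that bin Gata2 was at 24.4 CPM (18.2 to 32.1) in A965 and 13.4 CPM (10.8 to 16.5) in A963. The bin does not match the 2 hashtags in globin: its median globin share was 0.024% in A965 and 0.048% in A963. The cause of the Gata2 difference was not tested. With 1 more marker in the gate the Gata2 ratio was 1.26.

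**Figure D5:**
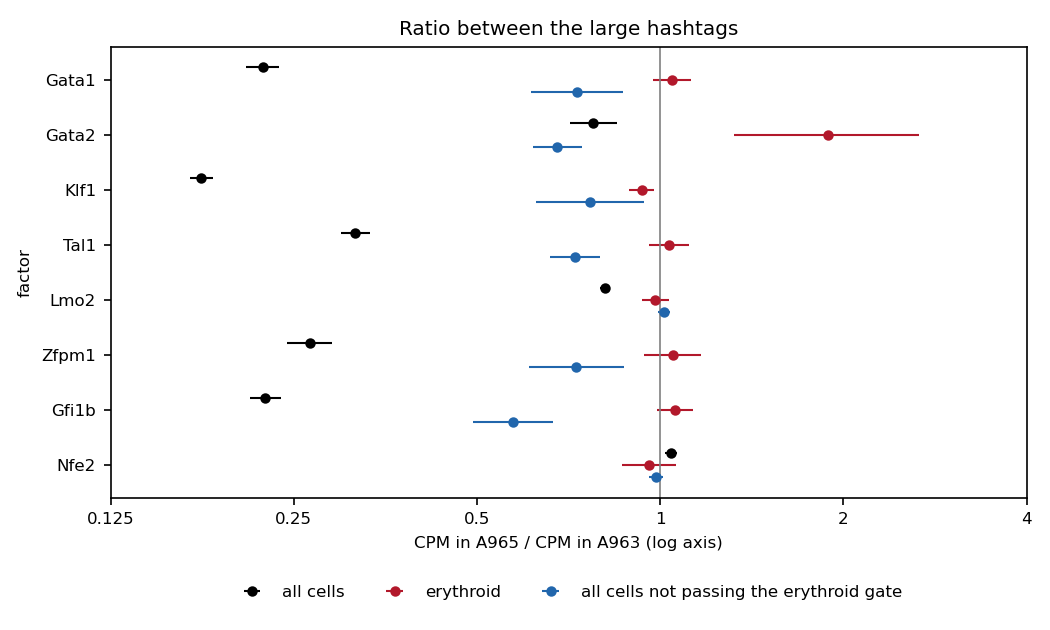
Ratio of CPM in A965 to CPM in A963 (log axis) for each factor, over all cells (black), in the erythroid gate (red) and in cells not passing it (blue), with exact 95% counting intervals. Over all cells 5 factors lie at 0.18 to 0.32, and in the erythroid gate 7 factors lie at 0.93 to 1.06 and Gata2 at 1.89.

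In the cells that did not pass the erythroid gate, 4 factors reached the 5 CPM needed for a call, and 0 of them were 1.5-fold lower (against 2.04%) or higher (against 1.7%). Lmo2 (1.01) and Nfe2 (0.98) were level, and Gata2 (0.68, 0.62 to 0.74) and Tal1 (0.72, 0.66 to 0.80) were lower by less than that fold. Gata1 (0.73), Klf1 (0.77), Zfpm1 (0.73) and Gfi1b (0.57, 0.49 to 0.67) had under 5 CPM there. In the granulocytic and monocytic gates 2 or 3 factors reached 5 CPM and 0 were past 1.5-fold. The shares of genes higher and lower were 2.03% and 1.76% in the granule progenitor gate, 4.78% and 8.79% in the granule progenitor and neutrophil group, 2.71% and 5.76% in the neutrophil gate, 2.78% and 2.14% in the granule progenitor and monocyte group, and 6.84% and 7.79% in the monocyte gate. In the lymphoid gate Lmo2 was higher in A965, at 228 CPM against 142 (1.61, 1.41 to 1.85; 9.43% of genes higher), but at 1.45 in thinned cells it was not past 1.5-fold. Tal1 (0.51, 0.24 to 1.04) and Gfi1b (0.40, 0.22 to 0.71) were lower there (14.4% of genes lower), and with 1 fewer marker Tal1 was at 1.17. Nfe2 in the dendritic gate was at 11.2 and 2.30 CPM (4.87, 2.01 to 14.3; 7.13% of genes higher), from 32 and 6 counts, and with 1 fewer marker in the gate the ratio was 1.15. The stem gate had 1 factor higher, Zfpm1 (1.53, 0.84 to 2.83; 10.6% of genes higher and 15% lower). Cells in no gate had 1 lower, Gfi1b (0.59, 0.45 to 0.77; 4.27% of genes lower and 3.13% higher). The Tal1 and Zfpm1 intervals span 1.

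The partner genes of the 8 gave a mixed picture in the erythroid gate. Of 25 listed cofactors and partners, all tested, 7 were at least 2-fold higher and 4 lower (against 14.3% and 20.8% of all genes), with a median log2 ratio of 0.49 against 0.16 for all genes. Ldb1, the partner of Lmo2, was 3.15-fold higher, Tcf3, a partner of Tal1, 3.08-fold and Sox6, a repressor of embryonic globin, 56.9-fold, while Fli1, a factor of the megakaryocyte lineage, was at 2.75 CPM against 64.4 elsewhere. In the megakaryocyte gate Fli1 was instead at 147 CPM against 57.6, 2.56-fold higher, and 4 of the 23 tested partners were higher and 3 lower, near the shares of all genes there (16.6% and 12.7%). Of the 20 erythroid target genes 18 were tested in the erythroid gate, and all 18 were higher, led by Trim10 (135-fold), Add2 (110-fold) and Alas2 (107-fold), the first enzyme of haem synthesis in red cells. All 4 globins were higher, Hbb-bt by 98.1-fold.

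All 6 myeloid factors were lower in the erythroid gate (against 20.8% of all genes), Cebpe by 56.2-fold, Gfi1 by 45.8-fold, Spi1 by 32.8-fold and Cebpa by 29.9-fold. All 6 were also lower in the megakaryocyte gate (against 12.7%). Of the 9 tested megakaryocyte target genes 8 were higher in the megakaryocyte gate (against 16.6% of all genes), among them F2rl2 (183-fold), Gp1ba (124-fold) and Rab27b (121-fold). Against all other cells the 4 globins were lower there, Hbb-bs by 45.5-fold, Hba-a1 by 41.4-fold and Hbb-bt by 33.5-fold. In the same comparison 2 of 13 tested erythroid targets were higher and 6 lower (against 16.6% and 12.7% of all genes). The other cells include the erythroid-gate cells. With every cell passing that gate left out (18.9% of all genes then higher in the megakaryocyte gate and 13.2% lower), 0 of the 4 globins were 2-fold lower (ratios of 0.68 to 0.92, Hbb-bt at 23.5 CPM against 25.5). Of 8 tested erythroid targets, 4 were then higher, among them Trim58 (48.4-fold) and Icam4 (23.8-fold), and 1, Tfrc, was lower (2.19-fold); they are named after their values were seen. The 6 myeloid factors were lower and 8 of 9 megakaryocyte targets higher in that comparison too. Neutrophil markers summed to 1064 CPM in the erythroid gate and 757 CPM in the megakaryocyte gate, and their part in these results was not tested.

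Over 22 groups (11 gates split by A963 and A965, each with at least 50 cells, which leaves out the megakaryocyte and basophil gates), the genes with the pattern most like each factor were found among 4293 genes by Pearson's r of log2(CPM + 10). For Gata1 they were Epdr1 (0.99), Ces2g (0.99) and Septin8 (0.99), for Klf1 Ces2g (0.997), Tspo2 (0.997) and Atp1b2 (0.995), and for Gfi1b Bex4 (0.99), Gstm5 (0.98) and Stard10 (0.97). Zfpm1 was most like Samd14 (0.98), Gstm5 (0.98) and Icam4 (0.98), and Tal1 most like Cela1 (0.97), Sdsl (0.97) and Mfsd2b (0.96). Gata2 was most like Slc22a3 (0.96), Myct1 (0.96) and Rab38 (0.95), Lmo2 like Foxo3, Sord and Hsd17b10 (0.90 each), and Nfe2 like Tspan32 (0.85) and Ifitm2 (0.82). Between factors, r was 0.98 for Gata1 and Klf1, 0.96 for Gata1 and Gfi1b, 0.31 for Gata1 and Gata2 and 0.03 for Klf1 and Nfe2. With log2(CPM + 1) in place of this scale, 14 of the 24 genes were again among the 3 most like their factor and 10 were not, among these all 3 of Tal1. Outside the erythroid gate Gata1 and Klf1 were at most 9.16 and 7.06 CPM in these groups, so their r values largely set that gate against the rest. The groups share the library and the depth of their cells, and these r values are a description.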

How the data were processed

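The deposited table holds whole-number counts per gene and cell for 1 library, made by the authors with BD Rhapsody capture and TAS-Seq amplification, per the labels. The submitters' processing notes name GRCm38, Seurat 4.2.0 and R 4.2.1 and give them no role. The aligner, annotation, counter and the thing counted (molecules or reads) are not given in the sources used here. The hashtag was read from each cell name, per the file headers.

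Of 10535 cells, 7 with under 500 genes or over 20% mitochondrial counts were removed; cell totals ran from 8822 to 140994. The 190 cells that the authors named doublets and 6 without a detected hashtag were left out. Each cell was thinned to 8800 counts for gates and for shares of cells; levels are summed unthinned counts scaled to CPM. Gates needed 1 count per marker, with at least 5 of 10 erythroid, 3 of 10 megakaryocyte, 4 of 8 basophil and mast, 3 of 5 eosinophil, 3 of 8 stem and 3 of 9 lymphoid markers, or 3 counts per marker with at least 4 of 5 granule progenitor, 5 of 8 neutrophil, 3 of 8 monocyte and 3 of 10 dendritic markers. The numbers needed were set on the markers after their values were seen, never on the 8 factors. Of the cells, 7180 passed 1 gate, 2405 passed several and 943 passed none. Cells passing several gates were kept apart. Cma1 and Tpsb2 (markers), Ahsp and Tubb1 (lists) had no row in the table.

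Genes were tested against the fold of 2 (gates, globin bins) or 1.5 (hashtags) when their mean over the groups compared was at least 5 CPM. Intervals are exact Poisson for levels, exact Clopper-Pearson for shares and exact conditional binomial for ratios. Since repeated reads of 1 molecule may be counted, they may be too narrow. The ratio step was tested on simulated data with known folds. Named were the 8 factors, the 3 genes most like each (at least 50 CPM in 1 group, leaving out the factors, gate markers, Rik and Gm-number names, and mitochondrial and ribosomal protein genes) and the 4 list genes with the largest fold each way in the erythroid and megakaryocyte gates; other cofactors were named after their values were seen. Some genes that this rule names are not reported here. Factors, lists and comparisons were chosen with earlier results of these data known. Python 3.11.15, numpy 2.4.6, scipy 1.17.1, pandas 2.3.3 and scanpy 1.11.5 were used. Coordinates are from GENCODE M21 and RefSeq.

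Alternatives covered gate strictness, thinning, Scrublet calls, no cell filter, per-cell CPM, median-of-ratios scaling, 3 and 6 globin bins and a pseudocount of 1. Added after seeing the data were every cell passing a gate, erythroid-gate cells left out of the comparison cells (factors and gene lists), totals without globin, A963 cells only and cells outside the erythroid gate.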

Additional observations from a re-analysis of the deposited data

Results flagged for a closer look

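The 190 cells that the authors named doublets entered no comparison above, and all 8 factors were measured in them above the level that 3 counts give there (0.53 CPM). Summed levels were 11.8 CPM for Gata1, 5.61 CPM for Gata2, 38.8 CPM for Klf1, 17.4 CPM for Tal1, 122 CPM for Lmo2, 8.07 CPM for Zfpm1, 20.9 CPM for Gfi1b and 94.0 CPM for Nfe2. In the kept cells the same genes were at 17.9, 6.62, 40.8, 20.4, 148, 8.79, 20.1 and 102 CPM. Of the named doublets, 20 (10.5%) passed the erythroid gate, and 8 of these passed another gate too.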

How the results depend on the processing

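No paired analysis was possible because all cells came from 1 library and each hashtag occurs once. Of the alternative values for counts of factors past the fold, 104 were within 1.5 times the reported count and 10 were not. The count of higher factors in the basophil and granule progenitor group, 3 as reported, was 1 with 1 more marker and 1 over every cell passing the gate. That in the basophil and mast gate, 3 as reported, was 5 with 1 fewer marker and 5 with erythroid-gate cells left out of the comparison cells. That in the stem gate, 3 as reported, was 5 in thinned cells, with per-cell CPM and with erythroid-gate cells left out. In A965 against A963, the count of higher factors in the erythroid gate fell from 1 to 0 with 1 more marker, and that of lower factors outside the gate rose from 0 to 1 without Scrublet calls. With globin counts out of the totals, 1 factor in place of 0 was higher in the highest globin bin.

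Of the alternative values for single factors, 701 moved by less than their interval, 187 moved further and 12 that had been past the fold changed direction. Called or not, 52 alternative ratios lay on the other side of 1, and 58 had another call than the reported one. With erythroid-gate cells left out of the comparison cells, which removes the cells where Klf1, Gata1 and Zfpm1 are high, Klf1 was at 6.83 in the megakaryocyte gate, 4.25 in the megakaryocyte and stem group, 6.87 in the basophil gate, 2.84 in the basophil and granule progenitor group and 1.59 in the stem gate; Zfpm1 was at 1.53 and 1.79 in the 2 basophil groups and Gata1 at 4.14 in the stem gate. These Klf1 values rest on 5 to 10 counts and the Zfpm1 values on 2 and 4. Gfi1b, not past 2-fold against all other cells, was then at 6.25 in the basophil gate. It was at 15.6 in the basophil and granule progenitor group and 4.25 in the stem gate. Gata1 was at 0.98 in the basophil and granule progenitor group with 1 more marker and at 1.02 in the stem gate over every cell passing it. With 1 fewer marker Zfpm1 was at 2.48 in the basophil gate and Tal1 in A965 over A963 at 1.17 in the lymphoid gate; the cause of these was not tested. Gates of 38 to 47 cells limit what can be said of single factors there.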
